A study of Homo sapiens with 9 samples.

Results

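The 3919 regions described here lie on the long arm of chromosome 17 (17q), among 148797 regions of open chromatin counted in SK-N-BE(2)c cells. They were chosen by position alone: chromosome 17 and a centre beyond the centromeric limit set on GRCh38. The 590 regions of the short arm (17p), with a centre before a matching limit, served as the comparison, and 13 regions between the limits were left out. SK-N-BE(2)c is an established MYCN-amplified neuroblastoma cell line. All cultures were transfected with an antisense oligonucleotide (ASO), a short synthetic strand that binds an RNA, at 100 nM with lipofectamine 2000. The oligonucleotides ASO2 and ASO10 are directed against NESPR, a long noncoding RNA, and NCA served as the negative control. No untransfected group was used, so NCA carries the transfection as well. Each group had 3 libraries, made by Tn5 tagmentation (ATAC-seq) 48 h after transfection, and a single cell line was studied. No label says that the libraries of a group came from separate cultures, so p-values measure the spread between these libraries, which may be technical.

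In ATAC-seq the transposase Tn5 cuts where DNA is not covered by nucleosomes, so counts are high at active promoters and enhancers. Gain of 17q is among the most common chromosome changes in neuroblastoma, and 17q genes such as BIRC5, PPM1D and TBX2 are studied as genes that act through extra copies. A gained segment gives more DNA to cut, so counts scale with copy number as well as with openness. DNA copy number was not measured here, and copies per cell and openness per copy cannot be told apart from these counts. Fewer cells with an open site and less opening in each cell cannot be told apart either.

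Counts over all regions totalled 7293565 to 10948569 per library, and 3321 regions of 17q and 509 of 17p passed the filter on low counts, of 119417 in all. A region is called a gene end where a protein-coding gene starts or stops within 1 kb of it. Regions were found at 7 of 8 neuroblastoma marker genes, among them HAND2 and DBH, and none at TH. Of 8 markers of blood, endothelium, liver, fibroblasts and glia, 4 had a region, and CD3E, ALB, CDH5 and MPO had none. Levels are given as CPM, the count of a region divided by the size of its library, on the same scale in all 9 libraries. The summed level of these other markers was 13.4 to 15.2 CPM in NCA, 16.5 to 17.4 in ASO2 and 13.7 to 19.9 in ASO10. The summed level of the neuroblastoma markers was 133 to 146 CPM in NCA, 119 to 146 in ASO2 and 132 to 141 in ASO10.

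The promoters printed here carry the results that follow. DCXR and METTL23 are the 2 promoters whose rise under ASO10 held in all 18 alternative analyses. SP2 and TOP2A are promoters higher under ASO10 with repeated CCAAT boxes, SUZ12 lies nearest the centromere among the promoters higher under ASO10, and MMD is the promoter with the smallest adjusted p between ASO2 and ASO10. Each runs from 250 bases before to 50 bases after a gene start, on the strand of the gene, from RefSeq on GRCh38.p14. Capitals mark CCAAT, or ATTGG where it lies on the opposite strand. MMD was picked by its rank on adjusted p, and the other windows were picked after their values were seen. None was chosen independently of these data.
DCXR, chr17:82037648-82037947, minus strand: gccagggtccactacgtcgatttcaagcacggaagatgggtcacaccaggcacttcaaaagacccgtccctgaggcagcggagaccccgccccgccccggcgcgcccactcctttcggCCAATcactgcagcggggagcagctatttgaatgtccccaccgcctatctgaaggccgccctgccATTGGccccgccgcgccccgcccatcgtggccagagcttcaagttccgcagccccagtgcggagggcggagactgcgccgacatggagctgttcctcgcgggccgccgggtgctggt
METTL23, chr17:76725791-76726090, plus strand: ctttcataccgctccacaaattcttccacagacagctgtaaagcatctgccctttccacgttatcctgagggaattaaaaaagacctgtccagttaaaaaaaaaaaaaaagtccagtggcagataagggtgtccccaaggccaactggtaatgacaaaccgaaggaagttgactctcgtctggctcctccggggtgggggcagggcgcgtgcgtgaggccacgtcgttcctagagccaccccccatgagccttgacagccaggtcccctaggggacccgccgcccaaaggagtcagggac
SP2, chr17:47895986-47896285, plus strand: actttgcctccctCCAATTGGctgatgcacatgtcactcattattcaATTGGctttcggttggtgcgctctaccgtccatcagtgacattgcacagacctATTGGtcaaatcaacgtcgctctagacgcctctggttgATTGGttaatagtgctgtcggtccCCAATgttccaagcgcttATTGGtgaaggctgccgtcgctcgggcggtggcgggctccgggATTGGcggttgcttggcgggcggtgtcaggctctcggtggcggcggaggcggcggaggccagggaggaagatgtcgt
TOP2A, chr17:40417847-40418146, minus strand: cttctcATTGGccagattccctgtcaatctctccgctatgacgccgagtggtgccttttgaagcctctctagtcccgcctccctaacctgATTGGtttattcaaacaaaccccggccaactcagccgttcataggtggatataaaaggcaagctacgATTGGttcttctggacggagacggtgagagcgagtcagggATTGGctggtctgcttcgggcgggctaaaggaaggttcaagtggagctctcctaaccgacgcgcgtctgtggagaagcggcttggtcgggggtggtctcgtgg
SUZ12, chr17:31936757-31937056, plus strand: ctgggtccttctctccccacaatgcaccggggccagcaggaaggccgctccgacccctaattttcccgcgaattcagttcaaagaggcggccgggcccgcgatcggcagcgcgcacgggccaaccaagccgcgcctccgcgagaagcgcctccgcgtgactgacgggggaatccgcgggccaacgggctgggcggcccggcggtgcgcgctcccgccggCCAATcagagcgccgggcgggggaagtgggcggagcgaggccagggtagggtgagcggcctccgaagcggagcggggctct
MMD, chr17:55421786-55422085, minus strand: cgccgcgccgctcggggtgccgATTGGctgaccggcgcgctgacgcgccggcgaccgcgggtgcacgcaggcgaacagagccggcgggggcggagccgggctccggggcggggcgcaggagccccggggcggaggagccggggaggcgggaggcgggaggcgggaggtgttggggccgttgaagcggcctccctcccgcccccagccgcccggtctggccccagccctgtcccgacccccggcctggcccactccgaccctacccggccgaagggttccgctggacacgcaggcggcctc

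The first question was whether the long arm was read at a higher level than the short arm in the control libraries. The median 17q region had 6.49 to 6.54 CPM per kb in the 3 NCA libraries, and the median 17p region 6.39 to 6.55. The ratio of these medians was 1.01 ± 0.0138 (SD, n = 3), so the median region was read at nearly the same density on both arms. The medians are over unlike mixes of regions. Gene ends, the denser class, made up 34.58% of the 17p regions and 16.99% of the 17q regions. Regions numbered 25.99 per Mb on 17p and 67.42 per Mb on 17q. The ratio therefore does not show that the arms as a whole were read at the same level. At gene ends the median was 10.8 ± 0.112 on 17q and 8.11 ± 0.510 on 17p, and the ratio of 1.34 ± 0.0724 (SD, n = 3) lay between 1.28 and 1.417 in every NCA library. Away from gene ends it was 1.01 ± 0.0227. The mean in place of the median gave a ratio of 0.345. That value rests on 1 region of 17p, chr17:22521235-22521559, at 2997 ± 199.7 CPM in NCA, just inside the 17p limit. Its level was 3592 CPM in ASO2 and 2937 CPM in ASO10.

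The number of regions changed along the long arm more than their density did. From the centromere to 33 Mb, 17q held 181 regions, or 22.9 per Mb, close to the 25.99 per Mb of 17p. Beyond 33 Mb it held 3738 regions, or 74.4 per Mb. In 1-Mb windows the count was 2 to 59 on 17p (median 26), 15 to 36 between 26 and 33 Mb (median 25) and 39 to 104 between 33 and 83 Mb (median 74). No window from 33 to 83 Mb was below the highest window between 26 and 33 Mb. The last window, which the end of the chromosome cuts short, held 27 regions. The split at 33 Mb was chosen after the counts along the arm were seen, so no test was made of it.

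This step lay mainly in regions away from gene ends. Gene ends made up 33.1% of the 17q regions up to 33 Mb and 16.2% of those beyond. Regions away from gene ends numbered 17.004 per Mb on 17p, 15.3 per Mb up to 33 Mb and 62.4 per Mb beyond. Protein-coding genes were 15.2, 10.1 and 14.8 per Mb in the same stretches. The share of those genes with a region was 63.4% on 17p, 80.0% up to 33 Mb and 75.8% beyond, against 73.3% over all main chromosomes. Gene density therefore differed far less than the density of regions away from gene ends.

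**Figure D1:**
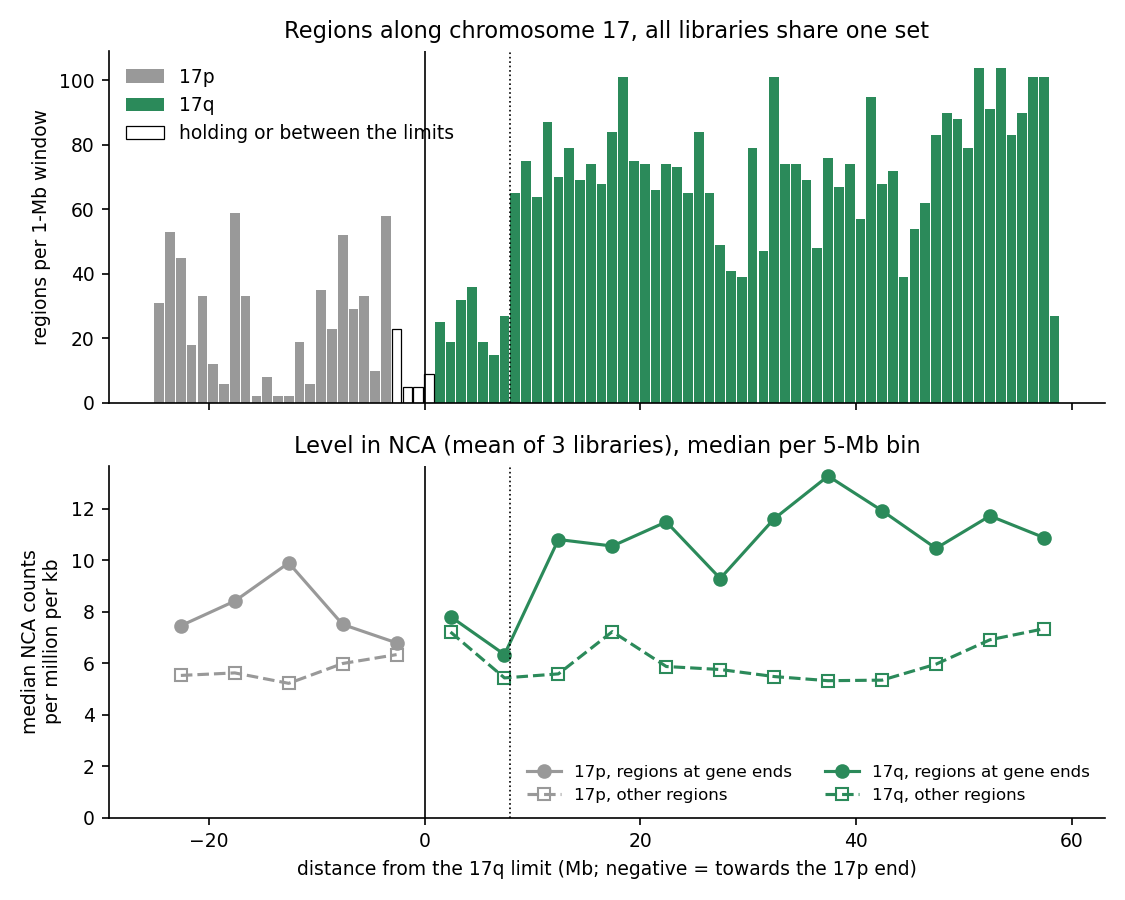
Regions per 1-Mb window (top) and median NCA density in CPM per kb by 5-Mb bin (bottom, mean of 3 libraries) against distance in Mb from the 17q limit (solid line). The dotted line marks the split at 33 Mb: full window counts were 15 to 36 on the 17q side before it and 39 to 104 after it, and median gene-end density was 7.82 in the first 17q bin and 10.8 in the third.

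The level of gene ends was also lower on the first stretch of 17q, and it rose later than the number of regions. Their median NCA density was 8.07 CPM per kb on 17p, 7.16 on 17q up to 33 Mb and 11.1 beyond, where the median over all main chromosomes was 11.4. By 5-Mb bin it was 7.82 at 25 to 30 Mb, 6.34 at 30 to 35 Mb and then 9.30 to 13.3 in every bin from 35 Mb to the end. Of 275 bins of the genome with at least 20 gene ends, the quartiles were 9.78 and 13.7. The lowest 17q bin, at 30 to 35 Mb, stood above 0.727% of those bins, and the highest, at 60 to 65 Mb, above 68.4%. The bin at 50 to 55 Mb, at 9.30, was the 1 bin from 35 Mb on that fell below the lower quartile. In 1-Mb windows the median was still 3.94 at 33 to 34 Mb, with 1 gene end, and 7.10 at 34 to 35 Mb, with 10, and it reached 10.3 at 35 to 36 Mb.

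The median GC share of promoters with a region was 67.3% on 17p, 68.7% up to 33 Mb and 67.7% beyond. Among promoters with at least 60% GC the NCA density was 8.81, 7.40 and 13.6 CPM per kb in that order, against 13.9 over all main chromosomes. Regions away from gene ends had medians of 5.90, 6.80 and 5.99. The part of base composition in these levels was not tested.

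The 3 densest regions of 17q in NCA were not at genes. They were chr17:25920041-25920385 at 141 CPM per kb, chr17:53105992-53106455 at 138 and chr17:26603666-26604658 at 107. The first and the last lie 1374 kb and 689 kb from WSB1, their nearest protein-coding gene, and the one between lies in a gene-poor stretch 716 kb from KIF2B. None of the 3 differed between either ASO and NCA by edgeR's adjusted p, which ranged from 0.288 to 0.809. Between the ASOs, chr17:53105992-53106455 was higher under ASO2 by 0.43 ± 0.11 on the log2 scale (edgeR adjusted p = 0.00552), though the libraries overlapped. That call was lost with DESeq2 and without ASO10 replicate 1 or ASO2 replicate 3. Just inside the 17q limit, chr17:25139857-25140033 and chr17:25242847-25243129 had 30.9 and 6.91 CPM per kb. Just outside it, chr17:25074300-25074699 and chr17:24888031-24888205 had 33.4 and 11.7.

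The second question was whether the ASOs changed the arm as a whole. The share of all counts that fell on 17q was 2.19%, 2.13% and 2.18% in the NCA libraries and 2.16%, 2.19% and 2.13% in the ASO2 libraries, which overlapped. Under ASO10 it was 2.35%, 2.31% and 2.29%, above every other library. The ASO10 mean of 2.31% ± 0.0303 against 2.17% ± 0.0327 in NCA gave an exact two-sided permutation p of 0.1, the smallest that 3 against 3 libraries allow, and 0.156 after adjustment over 14 such comparisons. The ASO2 mean of 2.16% ± 0.0300 gave an exact p of 0.7. The share of 17p without its single strongest region was 0.356% in NCA, 0.359% in ASO2 and 0.397% in ASO10. Its ASO10 libraries, at 0.390% to 0.403%, lay above all NCA libraries, at 0.348% to 0.361%. ASO2, at 0.350% to 0.367%, overlapped NCA. With that region kept, the 17p share was 0.651% ± 0.0164 in NCA, 0.710% ± 0.0199 in ASO2 and 0.682% ± 0.00655 in ASO10, and neither ASO overlapped NCA (exact p = 0.1 each). As a share of the counts on chromosome 17 alone, 17q was higher under ASO10 by 0.0066 on the log2 scale (exact p = 0.4), against 0.095 as a share of all counts. That chromosome 17 share includes the strongest 17p region, and no value without it is given. It therefore does not set 17q against the rest of 17p, which was also higher under ASO10. Gene ends of the whole genome also took more of the counts under ASO10, at 26.2% ± 0.728 against 24.6% ± 0.915 in NCA and 23.8% ± 1.24 in ASO2. The part that this genome-wide shift has in the 17q share was not tested.

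Summed counts in 5-Mb bins showed where along the arm the ASO10 libraries stood higher. In a fit of 605 bins over the main chromosomes with edgeR's quasi-likelihood test, 32.7% of bins passed an adjusted p of 0.05 between ASO10 and NCA. On 17q 9 of 12 bins passed, and all 9 were higher under ASO10. The largest change was at 40 to 45 Mb, with a log2 fold change of 0.21 ± 0.024 (SE), followed by 0.15 ± 0.017 at 45 to 50 Mb and 0.13 ± 0.021 in the last bin from 80 Mb. In the bin at 40 to 45 Mb the sum was 3150, 3114 and 3071 CPM in NCA, 3042, 3076 and 3106 in ASO2 and 3554, 3613 and 3654 in ASO10. All 3 ASO10 libraries stood above the other 6. This bin holds an array of U2 snRNA genes described further on. Without the array, an analysis chosen after seeing the data, its change was 0.13 ± 0.020, below that at 45 to 50 Mb, and 9 of 12 bins still passed. The median log2 fold change of its 351 tested regions, array included, was 0.079. With gene ends left out, 4 of the 12 bins passed.

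Under ASO2 the arm was mixed. Of 12 bins, 5 passed, where 52.7% of all bins did: the bin at 50 to 55 Mb was higher, by 0.092 ± 0.019 on the log2 scale, and 4 were lower. The lowest was the first bin beyond the centromere, at -0.13 ± 0.025, followed by -0.072 ± 0.018 at 35 to 40 Mb. In the bin at 50 to 55 Mb the sum was 1489, 1475 and 1463 CPM in NCA and 1587, 1543 and 1590 in ASO2, with no overlap. This bin holds the long gene-poor stretch around CA10 and KIF2B, and 21 of its 217 tested regions were higher under ASO2 than under NCA, or 9.68%, and 2 lower, where 4.79% of all tested regions were higher and 0.808% lower. Without NCA replicate 2 only 3 of the 12 bins passed. Between the ASOs 9 of 12 bins passed, against 53.9% of all bins, and all 9 were lower under ASO2.

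**Figure D2:**
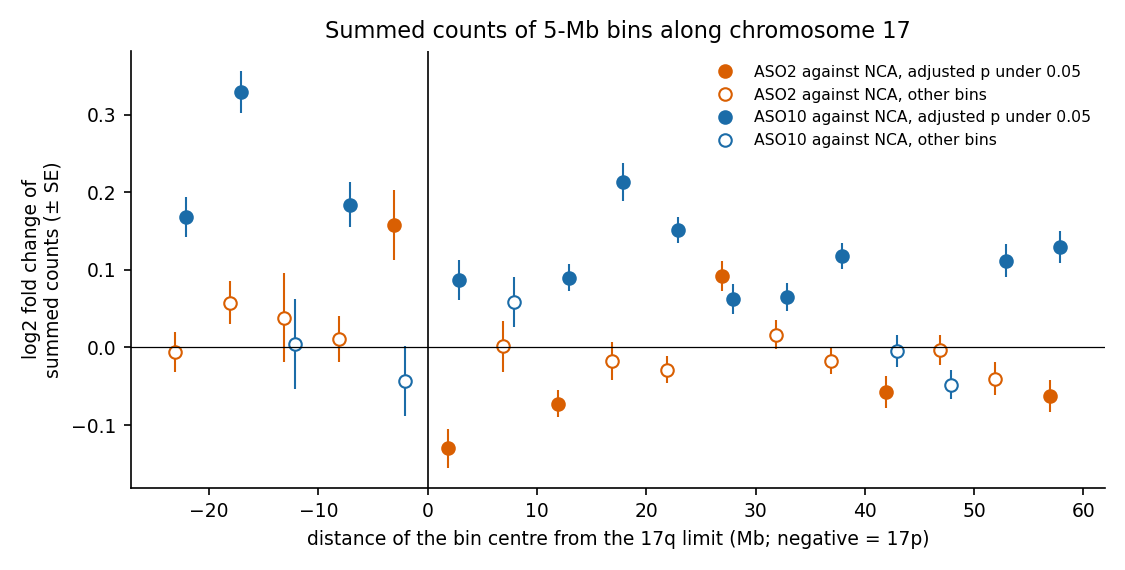
Log2 fold change (± SE) of summed counts in 5-Mb bins along chromosome 17 against distance in Mb from the 17q limit, for ASO2 and ASO10 against NCA, with filled points for an adjusted p under 0.05. ASO10 points on 17q reach 0.21 and 9 of 12 are filled, while ASO2 points run from -0.13 to 0.092.

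Region by region, more regions of 17q were higher than lower under ASO2, as over all tested regions, but the share that was higher was smaller on 17q. Of 3321 tested regions of 17q, 102 passed edgeR's adjusted p of 0.05 against NCA, or 3.07%, where 5.60% of all tested regions did, 17q included. The difference between these shares was not tested. Of the 102, 77 were higher, or 2.32% of the tested 17q regions, and 25 lower, or 0.753%. Of all tested regions 4.79% were higher and 0.808% lower. Most of the regions that were higher lay away from the ends of genes, and 35 of the 77 lay inside a gene. Of the 77, 3 were gene ends (0.645% of all tested gene ends were higher and 1.04% lower), 47 lay more than 50 kb from a gene end and the median distance was 86.6 kb. Among all 3321 tested regions of 17q, 800 lay more than 50 kb from a gene end, and the median distance was 13.2 kb. The median log2 fold change of the 77 was 1.11. The number rested partly on single libraries, with 53 regions called without ASO2 replicate 2 and 65 without NCA replicate 2.

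The region with the largest fold change among the 5 leading increases lay inside SYNRG, which encodes the vesicle-trafficking protein synergin gamma, at chr17:37562044-37562755. Its level was 2.45, 1.89 and 2.27 CPM in NCA, 9.82, 10.6 and 7.71 in ASO2 and 3.28, 1.93 and 3.39 in ASO10. Only the ASO2 libraries stood apart from NCA here, and the fold change against NCA was 2.08 ± 0.31 on the log2 scale (SE, edgeR adjusted p = 6.06e-09). It was also higher than under ASO10, by 1.71 ± 0.29 (adjusted p = 4.15e-06).

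Several of the leading increases fell in the stretch around CA10, which encodes a carbonic anhydrase-related protein of synapses that lacks enzyme activity. The region chr17:52885423-52886436, 725.4 kb from CA10, had 10.8, 10.1 and 8.51 CPM in NCA and 22.3, 20.5 and 22.02 in ASO2. Its ASO2 values were about 2.21 times those of NCA (log2 fold change 1.14 ± 0.17, edgeR adjusted p = 5.56e-09), and its ASO10 values of 12.7, 13.0 and 14.5 lay between. A second region, chr17:52024125-52025211 inside CA10, had 12.5, 10.3 and 9.76 CPM in NCA and 20.1, 28.0 and 20.7 in ASO2. Here ASO10 overlapped NCA at 11.3, 13.2 and 11.2, and the ASO2 fold change was 1.08 ± 0.16 (adjusted p = 2e-08). The promoter side of CA10 itself did not pass: its gene-end region had 12.4 CPM in NCA, 14.9 in ASO2 (edgeR adjusted p = 0.468) and 15.6 in ASO10 (adjusted p = 0.48).

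The remaining leading increases lay near genes of other kinds. The region chr17:70353614-70355842, 173.6 kb from KCNJ2, the gene of an inward-rectifier potassium channel, had 14.7, 8.57 and 11.006 CPM in NCA and 20.8, 22.96 and 27.8 in ASO2 (log2 fold change 1.07 ± 0.16, with an edgeR adjusted p of 1.21e-08). In the second gene, the region chr17:67193589-67194352, inside the RNA helicase gene HELZ, had 3.48, 4.16 and 4.08 CPM in NCA and 11.5, 9.98 and 12.6 in ASO2 (1.53 ± 0.24, adjusted p = 6.44e-08). Neither had an NCA library as high as any ASO2 library. Under ASO10 the HELZ region was at 7.15, 8.19 and 5.73 CPM, above all NCA libraries, but its adjusted p was 0.0625. These 5 leading increases kept their call in all 18 alternative analyses.

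Fewer regions were lower under ASO2, and their calls were less firm. The clearest, chr17:48014395-48015109, lies 11.1 kb from COPZ2, which encodes a coatomer subunit of Golgi vesicles. It had 15.8, 12.4 and 13.0 CPM in NCA, 7.16, 4.29 and 6.24 in ASO2 and 15.8, 16.0 and 12.1 in ASO10. The fold change was -1.23 ± 0.20 against NCA (edgeR adjusted p = 1.6e-07) and -1.33 ± 0.20 against ASO10 (adjusted p = 2.69e-08), and it held in all 18 alternatives. The other 4 leading decreases lay 26.2 kb from the zinc transporter gene SLC39A11, 0.915 kb from CBX1, which encodes the heterochromatin protein HP1 beta, 57.1 kb from UTP18, a gene of ribosomal RNA processing, and inside MSI2, which encodes an RNA-binding protein of neural progenitors. Their log2 fold changes were -1.37, -1.59, -0.66 and -0.52. Each of these 4 lost its call without 1 or another library: SLC39A11 without ASO2 replicate 2, CBX1 without ASO2 replicate 3, UTP18 without ASO2 replicate 1 or NCA replicate 3, and MSI2 without ASO2 replicate 1 or NCA replicate 1.

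**Figure D3:**
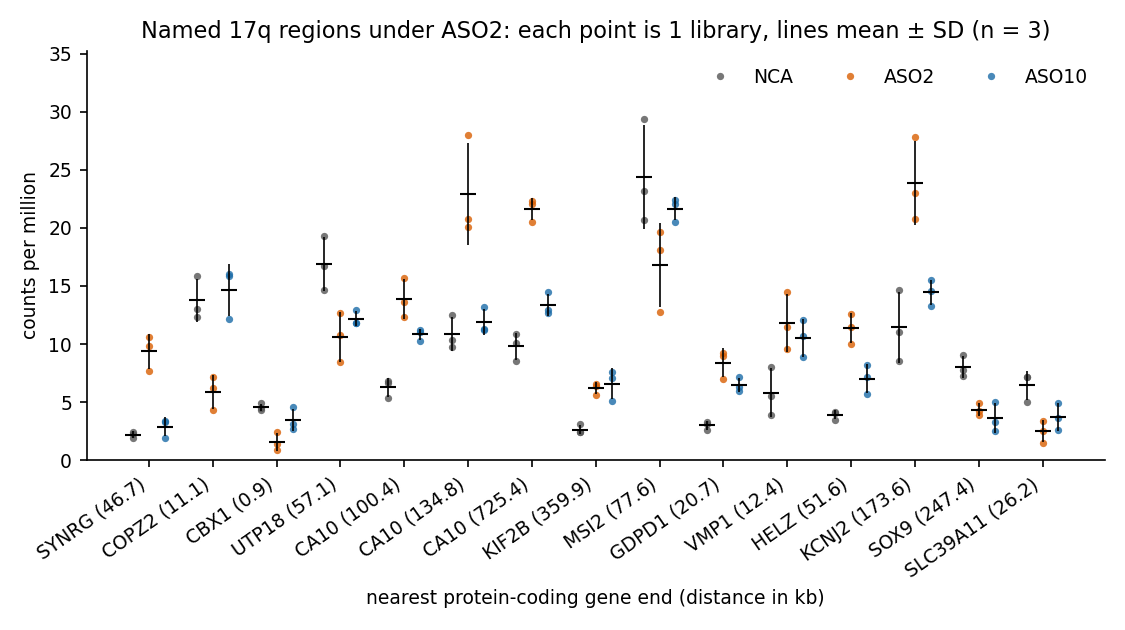
Level in CPM of 15 named 17q regions, ordered along the arm and labelled by nearest protein-coding gene end and distance in kb; points are libraries and lines the mean ± SD (n = 3). The region inside SYNRG rises from 1.89 to 2.45 CPM in NCA to 7.71 to 10.6 in ASO2, and the COPZ2 region falls to 4.29 to 7.16.

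Under ASO10 nearly all called regions of 17q were higher. Of 3321 tested regions, 54 passed against NCA, or 1.63%, where 1.09% of all tested regions did. Of these 50 were higher, or 1.51% of the tested 17q regions, and 4 lower, or 0.120%. Of all tested regions 0.876% were higher and 0.210% lower, so most calls over the whole genome, 1046 of 1297, were higher too. Gene ends made up 27 of the 50, 22 overlapped a promoter window and 12 lay in an array of U2 snRNA genes. All 50 had ASO10 libraries above every NCA library. They were called on these same libraries, so that separation follows largely from the selection and is no further support. Of all tested regions, called or not, 15.7% had groups that did not overlap in either direction. Without ASO10 replicate 1 the count was 24, without ASO10 replicate 3 or NCA replicate 1 it was 27, without NCA replicate 2 it was 28 and without NCA replicate 3 it was 33.

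Gene ends of 17q leaned towards higher values under ASO10 as a class. Of 641 tested gene ends, 27 were higher, or 4.21%, against 1.95% of all 14563 tested gene ends, and 1 was lower, against 0.124%. The share on 17p was much the same, with 8 of 194 gene ends higher, or 4.12%. The median log2 fold change of the 17q gene ends was 0.14, and it was 0.083 over all gene ends and 0.24 over the 194 gene ends of 17p. Regions away from gene ends had a median of 0.011 on 17q. The shift followed the level of the region. Among 17q regions with a mean above 5 on the log2 CPM scale the median was 0.30 (84 regions), against -0.0076 for the 1158 regions below 1, and over all regions those medians were 0.13 and -0.063.

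In the U2 snRNA array 12 of 13 regions were higher under ASO10, where 0.876% of all tested regions were. U2 is the small nuclear RNA that pairs with the branch point of introns in the spliceosome, and its genes stand in tandem copies on 17q. RefSeq annotates RNU2-1 and 12 further snRNA genes there, and each of the 13 had 1 region, between 43233452 and 43300979. This array was singled out after its values were seen. Its copies are nearly identical, so the split of reads between its regions is uncertain and the sum is the firmer value.

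Summed over the array, NCA libraries had 448, 418 and 439 CPM, ASO2 libraries 473, 554 and 471 and ASO10 libraries 678, 664 and 732. All 3 ASO10 libraries were above all others, and the ASO2 libraries were all above NCA by a smaller margin. These 12 passed edgeR's adjusted p of 0.05, and the median log2 fold change of the 13 was 0.73 (range 0.27 to 0.88). The region over RNU2-1 itself had 23.7, 26.1 and 28.0 CPM in NCA and 35.4, 40.8 and 40.6 in ASO10 (0.58 ± 0.13, adjusted p = 0.00246), and its call was lost without ASO10 replicate 3 or NCA replicate 1. The call of chr17:43271188-43271585 was lost with DESeq2, total counts, the loess correction, and without ASO10 replicate 1 or 3 or NCA replicate 2 or 3, and the other 10 calls held in all 18 alternatives. The 1 region that did not pass, chr17:43245573-43246812, had 57.1 to 61.5 CPM in NCA and 65.1 to 80.3 in ASO10 (adjusted p = 0.285).

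Under ASO2 2 of the 13 array regions passed as higher, chr17:43239094-43240107 and chr17:43295623-43296816, and the median was 0.21. Of all tested regions 4.79% were higher under ASO2. Both calls depended on single libraries. The first was lost without ASO2 replicate 2, NCA replicate 2 or NCA replicate 3, and the second without ASO2 replicate 1 or 2 or any single NCA library. Between the ASOs 9 of 13 were lower under ASO2, with a median of -0.50, where 0.682% of all tested regions were lower. Elsewhere in the genome 59 tested regions lay at snRNA genes. Under ASO10 19 of them passed as higher and 0 as lower, with a median of 0.24, where 0.876% of all tested regions were higher. Under ASO2 0 of the 59 passed as higher and 3 as lower, with a median of -0.0072, so the smaller rise of the array under ASO2 was not seen there. With a loess correction for abundance the array's median under ASO10 was 0.59.

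**Figure D4:**
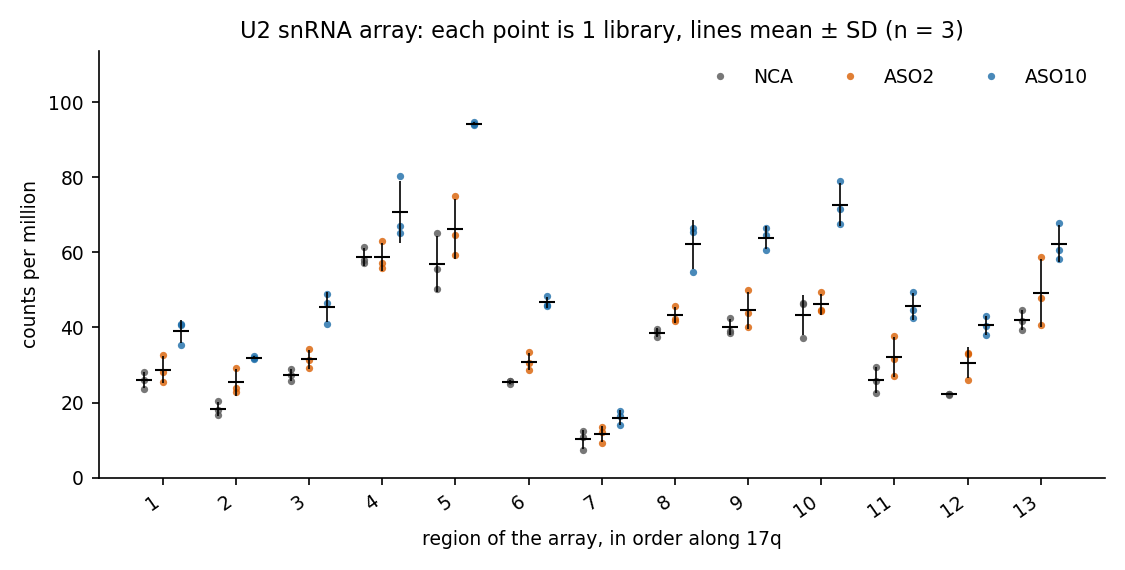
Level in CPM of the 13 regions of the U2 snRNA array, in order along 17q; points are libraries and lines the mean ± SD (n = 3). ASO10 lies above NCA in every library of 12 regions called higher, such as the sixth, where NCA was 24.8 to 25.7 and ASO10 45.7 to 48.4.

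The 22 promoter regions higher under ASO10 belong to genes of several kinds. They lie at DCXR, METTL23, SP2, TOB1, ASPSCR1, JPT1, SYNRG, SKA2 with PRR11, SUZ12, WBP2, NARF, P4HB, MAP3K3, TOP2A, SLC25A39, STAT3, TK1 with AFMID, KPNB1, MAP3K14, HEXIM1, JUP and LOC105274304. Their log2 fold changes ran from 0.39 to 0.72. None of the 22 passed between ASO2 and NCA, which is not by itself a difference between the ASOs. Tested directly, DCXR, WBP2, MAP3K3, TOP2A, SLC25A39, KPNB1, MAP3K14 and HEXIM1 were lower under ASO2 than under ASO10, and the rest did not pass. Of all 25 promoter regions called between the ASOs, 24 lost that call under at least 1 alternative. Between ASO2 and NCA 4 other promoter regions passed: CALCOCO2 (0.55) and a noncoding gene near SMIM36 (1.43) were higher, and MMD and a noncoding gene at MRC2 (-1.34) lower. The CALCOCO2 call was lost in 11 and the MRC2 call in 10 of 18 alternatives, limma-voom and leaving out single libraries among them, while the call near SMIM36 held in all. Most of these calls were near the threshold: 20 of the 22 were lost under at least 1 alternative, 18 of them without ASO10 replicate 1, 16 without NCA replicate 1, 15 without ASO10 replicate 3, 15 without NCA replicate 2, 12 without NCA replicate 3, 8 without ASO10 replicate 2, 4 without ASO2 replicate 1, 15 with the loess correction and 7 with a replicate block.

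The DCXR and METTL23 promoters kept their call throughout. DCXR, which encodes a carbonyl reductase of sugar metabolism, had 22.9, 24.2 and 20.9 CPM in NCA, 29.9, 26.1 and 21.1 in ASO2 and 40.7, 35.04 and 32.9 in ASO10. Its ASO10 fold change was 0.68 ± 0.13 on the log2 scale (edgeR adjusted p = 0.000375), and ASO2 overlapped NCA. The METTL23 region, which also covers an end of the histone demethylase and hydroxylase gene JMJD6, had 26.7, 28.1 and 32.8 CPM in NCA, 42.1, 34.7 and 33.8 in ASO2 and 45.2, 44.0 and 46.4 in ASO10. The fold change was 0.63 ± 0.12 under ASO10 (adjusted p = 0.000423) and 0.33 ± 0.12 under ASO2 (adjusted p = 0.109), and no library of either ASO was as low as any of NCA.

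Promoters of genes that control growth and transcription were among the rest. TOB1, an anti-proliferative regulator of mRNA decay, had 59.9, 55.9 and 60.1 CPM in NCA and 93.8, 75.2 and 77.2 in ASO10 (0.49 ± 0.11, edgeR adjusted p = 0.00269). SUZ12, a core subunit of the Polycomb repressive complex PRC2, had 12.8, 8.95 and 8.62 CPM in NCA and 17.5, 15.5 and 17.1 in ASO10 (0.72 ± 0.18, adjusted p = 0.0111). STAT3, the transcription factor of cytokine signalling, had 35.9, 35.2 and 37.2 CPM in NCA and 50.2, 49.0 and 48.8 in ASO10 (0.45 ± 0.12, adjusted p = 0.0238). In each of these ASO10 lay above NCA in every library, and for STAT3 ASO2 did too, at 48.6, 42.8 and 42.1 CPM (adjusted p = 0.139).

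**Figure D5:**
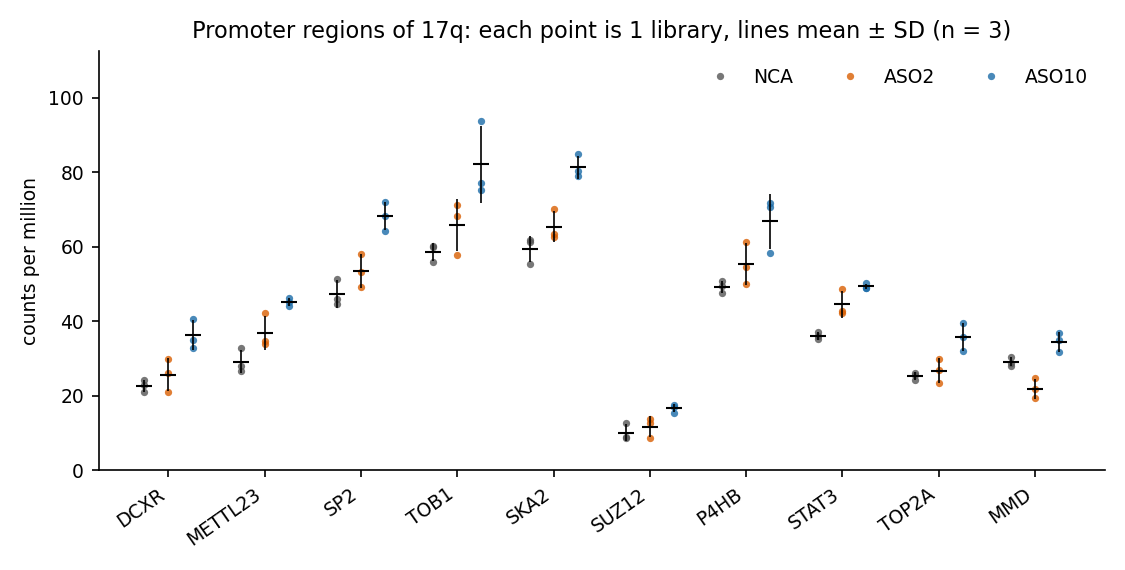
Level in CPM of 10 promoter regions of 17q; points are libraries and lines the mean ± SD (n = 3). In the first 9 every ASO10 library lies above every NCA library, as at DCXR with 32.9 to 40.7 against 20.9 to 24.2, while at MMD ASO2 is the lowest group at 19.3 to 24.7.

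The MMD promoter moved the other way under ASO2. MMD encodes a membrane protein of the progestin and adipoQ receptor family. Its region, chr17:55420864-55422406, had 28.1, 28.9 and 30.4 CPM in NCA, 24.7, 21.7 and 19.3 in ASO2 and 36.7, 31.6 and 34.9 in ASO10. The groups did not overlap, and ASO2 was lower than ASO10 by a log2 fold change of -0.66 ± 0.13 (edgeR adjusted p = 0.000164), which held in all 18 alternatives. The change against NCA was -0.42 ± 0.13 under ASO2 (adjusted p = 0.035, lost in 9 of the alternatives, the replicate block among them) and 0.24 ± 0.13 under ASO10 (adjusted p = 0.518).

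In the sequences, the CCAAT box was present in most of the 22 promoter regions. CCAAT is the sequence bound by the factor NF-Y at many promoters of housekeeping and cell cycle genes. The letters were present, on either strand, in a promoter window of 18 of the 22 regions, or 81.8%, against 40.0% of 438 tested regions of 17q with a promoter window and 37.7% of the 416 that were not called. Counted by window, it was in 26 of 37, or 70.3%, against 37.3% of 625 on 17q and 34.6% of all 34935 promoter windows of that length. Outside 17q, 165 of 240 promoter regions higher under ASO10 held it, or 68.8%, against 40.0% of 11545 tested. These shares are descriptions, and no test was made of them.

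Of the printed promoters, SP2 holds 8 CCAAT matches over both strands, TOP2A 4, DCXR 2, SUZ12 and MMD 1 each and METTL23 none. In SP2 a CCAAT and an ATTGG overlap at 1 place and count as 2. SP2 encodes a zinc finger factor of GC-rich promoters, and TOP2A the topoisomerase that untangles DNA in dividing cells. The other 6 motifs were GGGCGG, in 20 of 22 regions against 79.2% of the 438, CACGTG in 4 of 22 against 14.4%, AGATAA in 4 of 22 against 6.39%, TGANTCA in 1 against 5.71%, TGACGTCA in 0 against 2.74% and a palindromic homeodomain site in 0 against 0. All were searched on both strands, and none of the 7 contains another. A match says only that the letters are there.

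The ASO10 list of decreases was short. The 4 regions were chr17:34776472-34777303, 137.2 kb from TMEM132E, chr17:42667223-42668203 at an end of PLEKHH3, chr17:55845221-55845721 inside PCTP, which encodes a phosphatidylcholine transfer protein, and chr17:72373773-72374302 in the gene desert near SOX9. Their log2 fold changes ran from -0.997 to -1.50. The PLEKHH3 region had 13.8, 7.31 and 13.7 CPM in NCA and 6.10, 4.78 and 6.64 in ASO10 (edgeR adjusted p = 0.00248), so the groups did not overlap but NCA replicate 2 lay close to ASO10. Its call was lost without ASO10 replicate 2, NCA replicate 1 or NCA replicate 3.

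Under both ASOs against NCA, 6 regions of 17q were higher and 1 was lower, and 0 passed in opposite directions. Of all tested regions, 0.518% passed under both in the same direction. The 2 comparisons share the NCA libraries, so the count is given as a description. The 5 regions that follow lay outside the U2 array. The region chr17:59829081-59829830 lies inside VMP1, a gene of autophagosome formation, 11.4 kb before MIR21, the gene of a microRNA that is abundant in many tumours. It had 3.86, 5.55 and 8.06 CPM in NCA, 9.54, 14.5 and 11.5 in ASO2 and 10.7, 12.1 and 8.86 in ASO10. All 6 ASO libraries were above all NCA libraries, with log2 fold changes of 1.02 ± 0.21 under ASO2 (edgeR adjusted p = 0.000134) and 0.84 ± 0.22 under ASO10 (adjusted p = 0.0162). The ASO10 call was lost without ASO10 replicate 1 or 2 or NCA replicate 1 or 2.

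The other 3 increases were further from genes or had lower counts. The region chr17:53462384-53463016, 359.9 kb from KIF2B, a mitotic kinesin gene, had 2.38 to 3.09 CPM in NCA, 5.58 to 6.60 in ASO2 and 5.12 to 7.62 in ASO10. The region chr17:59296669-59297339, 20.7 kb from GDPD1, had 2.58 to 3.29 CPM in NCA, 6.97 to 9.23 in ASO2 and 5.98 to 7.16 in ASO10. The region chr17:51529119-51529950, 100.4 kb from CA10, had 5.33 to 6.83 CPM in NCA, 12.3 to 15.7 in ASO2 and 10.2 to 11.2 in ASO10. None of the 3 had an ASO library as low as any NCA library. Their ASO2 calls held in all 18 alternatives, while each ASO10 call was lost without ASO10 replicate 1, and all but the KIF2B call with limma-voom and without other single libraries too.

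The region lower under both, chr17:72373773-72374302, lies 247.4 kb from SOX9, a transcription factor of neural crest and cartilage whose enhancers are spread over a gene desert. It had 7.73, 9.08 and 7.26 CPM in NCA, 4.21, 3.86 and 4.95 in ASO2 and 5.04, 2.503 and 3.26 in ASO10. Each ASO library was below each NCA library. The log2 fold changes were -0.88 ± 0.27 (edgeR adjusted p = 0.0275) and -1.15 ± 0.28 (adjusted p = 0.0095). The ASO2 call was lost with DESeq2 and without ASO2 replicate 1 or 2 or NCA replicate 1 or 2, and the ASO10 call without ASO10 replicate 2 or 3 or NCA replicate 2. The gene-end region of SOX9 itself had 14.6 CPM in NCA, 17.6 in ASO2 and 15.6 in ASO10 and passed in neither comparison (edgeR adjusted p = 0.424 and 0.879).

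Compared directly, 91 regions of 17q differed between the ASOs, or 2.74%, where 3.23% of all tested regions did. Of these 40 were higher and 51 lower under ASO2. The 51 included 28 gene ends and 9 array regions, while 1 of the 40 was a gene end. Of all tested regions 0.682% were lower under ASO2, against 1.54% on 17q, and 2.54% were higher. Of all tested gene ends 2.87% were lower and 0.433% higher. After the COPZ2 region, the smallest adjusted p was that of chr17:62922417-62924286, 41.9 kb from TANC2, which encodes a synaptic scaffold protein. It had 23.4, 17.3 and 20.001 CPM in ASO2 and 7.27, 10.6 and 11.1 in ASO10, with NCA at 8.50 to 9.83 (log2 fold change 1.07 ± 0.17, edgeR adjusted p = 9.1e-07). Without ASO10 replicate 1 the count of 91 was 42, without ASO2 replicate 3 it was 45, without ASO10 replicate 3 it was 46, without ASO2 replicate 1 it was 52 and without ASO10 replicate 2 it was 54.

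The 17q gene lists are described by role and were chosen with earlier results of these data known, so their counts are descriptions. They can be read against the 1.95% of all tested gene ends, and 4.21% of those on 17q, that were higher under ASO10. Among 20 genes studied as dosage candidates in neuroblastoma, each with a tested gene-end region, 4 were higher under ASO10 and 0 under ASO2 (1.95% and 0.645% of all gene ends), with medians of 0.22 and -0.0042 on the log2 scale. The 4 were TBX2, a developmental repressor, with 19.3, 24.2 and 22.01 CPM in NCA and 30.4, 30.3 and 30.7 in ASO10 (edgeR adjusted p = 0.0456), and JMJD6, TK1 and TOP2A. The TBX2 call was lost in 11 of 18 alternatives, with a replicate block, total counts, the loess correction or no filter, and without any single ASO10 or NCA library or ASO2 replicate 1. BIRC5, the gene of the apoptosis inhibitor survivin, had 10.1 CPM in NCA, 9.93 in ASO2 and 11.2 in ASO10. That BIRC5 region lay inside the gene, 0.287 kb from an end, and overlapped no promoter window. PPM1D, the gene of a phosphatase that restrains p53, had means of 35.5 CPM in NCA, 34.0 in ASO2 and 40.1 in ASO10. Neither passed in either comparison.

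Cell cycle and DNA repair genes had 17 tested regions, of which 3 were higher under ASO10 (1.95% of all gene ends were): TOP2A, TK1 and the region shared by SKA2 and PRR11. The SKA2 and PRR11 genes, which act in chromosome segregation and cell cycle progression, share a divergent promoter, so their region counts once. It had 61.7, 55.3 and 61.2 CPM in NCA and 84.8, 79.0 and 80.2 in ASO10 (0.45 ± 0.11, edgeR adjusted p = 0.00731). BRCA1, of homologous recombination, had 27.8 CPM in NCA and 36.5 in ASO10 (edgeR adjusted p = 0.117). The median of the list was 0.27 under ASO10 and 0.075 under ASO2, where 0 regions passed.

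Of 17 stress and proteostasis genes, 5 were higher under ASO10, against 1.95% of all gene ends and 4.21% of those on 17q. They were HEXIM1, an inhibitor of transcription elongation, TOB1, the kinase gene MAP3K3, P4HB, which encodes protein disulfide isomerase, and STAT3. Of 18 alternatives, the HEXIM1 call was lost in 11, those of MAP3K3 and STAT3 in 8 each, P4HB in 6 and TOB1 in 2. P4HB had 49.3, 50.7 and 47.7 CPM in NCA and 70.6, 58.3 and 71.6 in ASO10 (0.44 ± 0.11, edgeR adjusted p = 0.0159). The list's median was 0.24 under ASO10 and 0.025 under ASO2. Proteasome genes of the list, PSMD11, PSMD3, PSMD12 and PSMC5, passed in neither comparison. Of 9 tumour suppressor genes, SUZ12 was the 1 that was higher, and NF1, the gene mutated in neurofibromatosis, had 11.2 CPM in NCA, 11.8 in ASO2 and 11.9 in ASO10.

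The remaining lists had no call against NCA. None of 18 tested regions of neural genes passed under either ASO, although their median under ASO10 was 0.22. MAPT, the gene of the microtubule protein tau, was lower under ASO2 than under ASO10, with 12.1, 17.7 and 13.5 against 22.4, 18.7 and 21.4 CPM (edgeR adjusted p = 0.03), a call lost with DESeq2 and without ASO10 replicate 1 or 3 or ASO2 replicate 1 or 3. None of 12 translation genes passed, with medians of -0.046 under ASO2 and 0.18 under ASO10. Of 10 HOXB genes, 4 had a region and 2, at HOXB5 and HOXB13, were tested, at 2.32 and 5.09 CPM in NCA. Among 18 genes of other cell types on 17q, 9 had a region, summing to 49.2 to 54.5 CPM in NCA, 47.0 to 53.5 in ASO2 and 46.9 to 51.7 in ASO10, and none passed.

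Set against the short arm, 17q did not stand alone. On 17p, 5 of 509 regions passed under ASO2, or 0.982%, and 14 under ASO10, or 2.75%, all 14 of them higher. POLR2A, the gene of the largest subunit of RNA polymerase II, was the 1 of 9 tested 17p list genes that was higher under ASO10, and that call was lost in the same 11 alternatives as that of TBX2. The bin with the largest ASO10 change on chromosome 17 was on 17p, at 5 to 10 Mb, with 0.33 ± 0.027. The ratio of median 17q to 17p density was 1.01 ± 0.0138 in NCA, 0.965 ± 0.0220 in ASO2 and 0.950 ± 0.0189 in ASO10. Neither ASO group overlapped NCA in this ratio, with an exact permutation p of 0.1 each, the smallest possible, and 0.156 after adjustment over the 14 comparisons.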

How the data were processed

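ATAC-seq was measured in 9 libraries, 3 each of ASO2, ASO10 and NCA. The raw counts per region are those deposited by the authors. Bowtie2 2.2.6, MACS2 2.1.2, DESeq2 1.42.0, SAMtools and FastQC, and the builds GRCh38 and hg38, are named per the submitters' processing notes. How reads were filtered, shifted or counted is not given in the sources used here.

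Counts were fitted with edgeR 4.0.16 (filterByExpr, TMM factors, robust quasi-likelihood test, all 9 libraries) in R 4.3.3, with Benjamini-Hochberg adjustment over 119417 regions and a threshold of 0.05. CPM values use TMM-scaled library sizes, and densities are CPM on total counts per kb. Sums in 5-Mb bins were fitted in the same way over 605 bins. Shares and ratios were compared by exact two-sided permutation tests with SciPy 1.17.1. On simulated counts for all regions, with 200 regions changed, the fit was tested for the sign and size of the changes. Tables and figures used Python 3.11.15, pandas 2.3.3 and matplotlib 3.10.9. Genes and promoter windows came from RefSeq tables of GRCh38.p14.

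The members, gene lists and tests were chosen with earlier results of these data known. Named were regions called under both ASOs, in each comparison the 5 higher and 5 lower regions of smallest adjusted p, the 3 densest regions, gene-end regions of the lists and the regions at the limits. The called promoter regions and the U2 array were added after their values were seen. Libraries with the same replicate number did not deviate together (r of deviations from group means -0.0363 to 0.0126 over 9 pairs). Alternatives were DESeq2 1.42.0, limma 3.58.1 (voom), other scalings and filters, a replicate block, only the 2 groups compared, other bins and each library left out. Some genes of the marker lists are not reported here, and the counts and sums of those lists leave them out.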

Additional observations from a re-analysis of the deposited data

Results flagged for a closer look

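Some 17q regions differed between the oligonucleotides when they were tested against each other. By edgeR's adjusted p of 0.05, 91 regions of 17q differed between ASO2 and ASO10, 40 higher and 51 lower under ASO2. They are 2.74% of the tested 17q regions, where 3.23% of all tested regions differed. The count was 42 to 95 when single libraries were left out. Both ASOs target the same RNA, and the labels give no measure of its level.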

How the results depend on the processing

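Of 129 pairs of a main result and an alternative, 103 stayed within the limits set for them and 26 did not. None was scored as reversed, but the small ASO2 share change took both signs. The density of 17q fell below that of 17p with means or summed counts. Leaving out single libraries gave 53 to 98 regions of 17q for ASO2 against NCA, 24 to 62 for ASO10 against NCA and 42 to 95 for ASO2 against ASO10. It gave 3 to 5, 6 to 11 and 7 to 10 bins in that order, density ratios of 1.01 to 1.02, and 17q share changes on the log2 scale of -0.017 to 0.0061 for ASO2 and 0.083 to 0.10 for ASO10. A loess correction for abundance left 33 regions for ASO10, and lowered the higher share of ASO2 calls from 75.5% to 65.3%. Bins of 10 Mb gave 3 calls for ASO2, and bins of 2.5 Mb 16 for ASO10 and 20 between the ASOs. Without gene ends, 4 bins passed for ASO10. The 17q to 17p density ratio was 0.345 with means, 0.598 with summed counts, 1.04 over tested regions and 1.34 over gene ends. With counts of chromosome 17 only, its strongest 17p region included, the share change was -0.030 for ASO2 and 0.0066 for ASO10. It was 0.12 for ASO10 with TMM scaling and 0.070 without gene ends. Apart from those set by construction, the cause was not tested. With a replicate block, 93, 43 and 73 regions and 5, 9 and 9 bins passed. The replicate numbers share only a number, and 0 libraries correlated best with their own number. For single regions, 4004 of 4474 pairs kept their call or lack of one, 407 lost a call and 63 gained one. With 3 libraries a group, regions of few counts have little power.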
